A study of Arabidopsis thaliana with 24 samples.

Results

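Roots of Arabidopsis thaliana after 12 h in mannitol were compared with roots after 6 h, an interval that ran from the afternoon to the end of the light period. The comparison used 4 of the 24 arrays of the series, 2 root arrays at 12 h and 2 root arrays at 6 h, defined by their tissue and time. The plants were of accession Col-0 and 16 days old, grew on Murashige and Skoog medium, and all received 300 mM mannitol in the medium from 3 h into a 16 h light period. The 12 h roots were therefore taken 15 h into the light and the 6 h roots 9 h into the light. Shoots of the same treatment and times, also with 2 arrays each, served as the comparison tissue, and the other arrays lent their spread to the fit and the rest of the time course. Untreated plants were not analysed here, so time in mannitol, time of day and plant age cannot be told apart. The labels do not say that replicates came from separate cultures. P-values therefore reflect the spread between the deposited arrays alone, which may be technical.

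Mannitol lowers the water potential of the medium, so roots, which are in direct contact with it, have to take up water against a steeper gradient. Plant cells answer water shortage with abscisic acid signalling, protective proteins of the late embryogenesis abundant (LEA) family, compatible solutes such as proline, and changes in wall loosening and growth. Roots also hold a circadian clock, whose evening genes normally reach their highest level late in the day.

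The array signals are MAS5 intensities on a linear scale in array units, and changes below are differences in log2(signal + 8), 12 h minus 6 h, with standard errors (SE) from a limma fit. Over the 4 root arrays the median signal lay between 42.2 and 44.2. Replicate arrays correlated with r = 0.983 at 12 h and 0.978 at 6 h, and 96 and 197 probe sets differed at least 2-fold between the replicates of those times. The summed signal of the 10 tested markers of green tissue was 854 and 889 in 12 h roots and 801 and 723 in 6 h roots, against 17052 and 17347 in 12 h shoots and 35425 and 28929 in 6 h shoots. PYK10, a beta-glucosidase abundant in roots, gave 3957 and 3713 in 12 h roots and 3322 and 2803 in 6 h roots, against 213 and 323 in 12 h shoots and 313 and 228 in 6 h shoots. The tissue labels thus matched the tissue markers. SCR, SHR, WOX5, PLT1, PLT2, CASP1 and IRT1 were not among the named probe sets tested, and EXPA7, a root hair expansin, was dim in every root array compared. These 2 tested root markers lay in opposite directions, with a change of 0.33 for PYK10 and -0.84 for EXPA7, and neither passed the test below. The 3' to 5' signal ratio of the first actin control, a sign of RNA quality, was 14.1 and 9.54 at 12 h and 9.79 and 14.6 at 6 h. That of ubiquitin was 2.40 and 2.84 at 12 h and 3.34 and 2.05 at 6 h. For both controls the 2 times overlapped, as for the first GAPDH control. The second actin control did not overlap, with 1.94 and 1.92 at 12 h and 2.04 and 1.98 at 6 h. Nor did the second GAPDH control, with 1.19 and 1.44 at 12 h and 1.13 and 1.17 at 6 h.

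Between 6 h and 12 h few root transcripts moved past the threshold. Of 16814 probe sets tested, 5 (0.0297%) passed an adjusted p of 0.05 (limma, Benjamini-Hochberg over all tested), 3 of them higher (0.0178%) and 2 lower (0.0119%) at 12 h. The 2 that fell were GI and AT1G55990, and the 3 that rose have no gene name in the annotation used here. In these bulk samples, fewer cells of a type and less RNA per cell cannot be told apart. At an unadjusted p under 0.05, 1294 probe sets (7.7%) passed, and 54 (0.321%) differed at least 2-fold in either direction. The median change was -0.0018, the median size of a change was 0.142 and the median SE was 0.186. For 15298 probe sets (91%) the 95% interval of the change lay within 2-fold in either direction. The calls depended on the spread shared by all 24 arrays. With the 12 root arrays alone, limma called 0 probe sets (1464 at an unadjusted p under 0.05). With the 4 arrays alone it also called 0 (1288 unadjusted).

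GI (GIGANTEA, AT1G22770, probe set 264211_at) encodes an evening-expressed clock protein that also promotes flowering. Its signal was 143 and 157 in 12 h roots and 298 and 324 in 6 h roots, with no overlap, or 150.0 ± 10.2 and 311 ± 18.8 (SD, n = 2 each). The change was -1.01 ± 0.13 (SE), with a limma adjusted p of 0.0079. Over the whole root course the arrays gave 195 and 188 at 0.5 h, 228 and 279 at 1 h, 405 and 409.5 at 3 h, 298 and 324 at 6 h, 143 and 157 at 12 h and 277 and 239 at 24 h. The highest root signals were therefore at 3 h and the lowest at 12 h. In shoots GI gave 105 and 95.8 at 12 h and 555 and 533 at 6 h, a change of -2.35 ± 0.13 (adjusted p = 4.0e-09). The root fall was smaller than the shoot fall, by 1.33 ± 0.18 in log2 (adjusted p of the difference 0.0004). Without the second 6 h root array the limma adjusted p of the root change was 0.12, and without the first 12 h root array it was 0.063.

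AT1G55990 (probe set 262097_at), a protein-coding gene with no function given in the tables used here, had the largest fall of any tested probe set. Its signal was 16.1 and 12.8 in 12 h roots and 69.5 and 49 in 6 h roots. The change was -1.57 ± 0.22, with a limma adjusted p of 0.011. In roots the gene was high at 2 of the 6 times, with 67.3 and 53.4 at 3 h and the 6 h values above, and low at the others, with 16.3 and 18.4 at 0.5 h, 15.5 and 12.1 at 1 h and 16.1 and 17.2 at 24 h. Shoot signals were no higher than 7.14 at any time. The adjusted p was above 0.05 without any 1 of the 4 root arrays, at 0.053 to 0.15, and with a pseudocount of 1 it was 0.27.

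**Figure D1:**
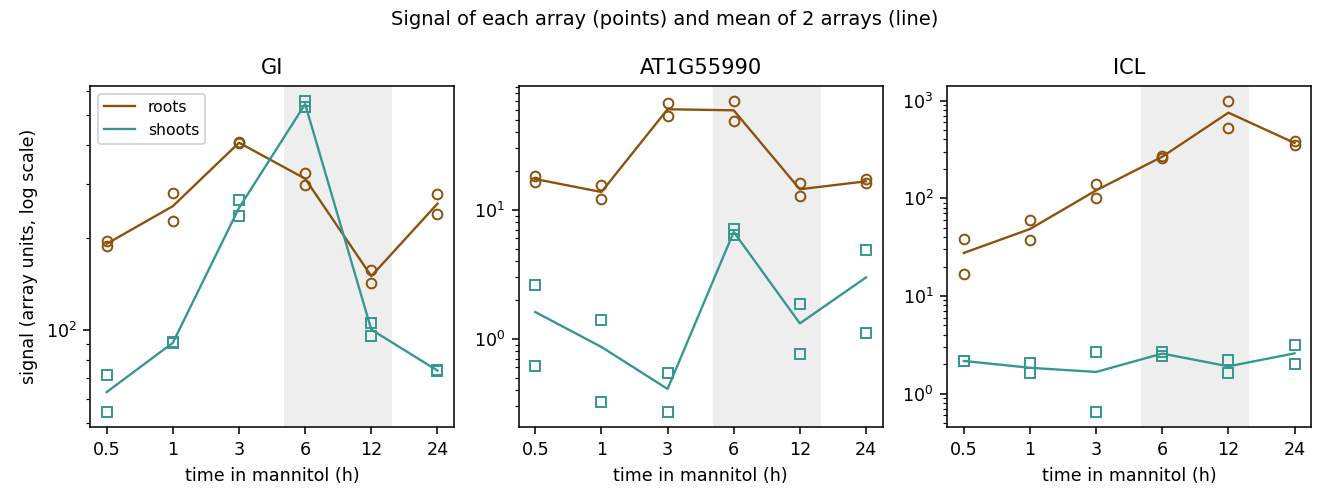
Signal (array units, log axis) of GI, AT1G55990 and ICL against time in mannitol (h, times evenly spaced), in roots (brown circles) and shoots (green squares), with each point 1 array and each line the mean of 2; the shaded band holds 6 h and 12 h. Root GI was lowest at 12 h, at 143 and 157, and root AT1G55990 was as low at 12 h as at 0.5, 1 and 24 h, while ICL stood near 0 in shoots and did not pass the test in roots.

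Of the 3 probe sets that rose, 261569_at gave 51.9 and 39.1 at 12 h and 13.8 and 10.5 at 6 h, a change of 1.40 ± 0.21 (limma adjusted p = 0.018). Its root signal was higher still at 24 h, at 257 and 264, and had been 70.6 and 111 at 0.5 h. The second, 245306_at, gave 771 and 633 at 12 h and 337 and 247 at 6 h, a change of 1.25 ± 0.19 (adjusted p = 0.019). It also rose in shoots, by 2.49 ± 0.19 (adjusted p = 1.8e-07), more than in roots, with a difference of -1.24 ± 0.27 (adjusted p = 0.015). The third, 254551_at, gave 379 and 401 at 12 h and 221 and 204 at 6 h, a change of 0.85 ± 0.13 (adjusted p = 0.024). In each of the 3, both 12 h arrays lay above both 6 h arrays. That held for 19.2% of all tested probe sets and adds nothing to calls made from the same arrays. For 254551_at the adjusted p was above 0.05 without any 1 of the 4 root arrays, at 0.10 to 0.22, and was 0.083 with median scaling. For 261569_at it was above 0.05 without either 6 h array or the first 12 h array, at 0.12 to 0.16. For 245306_at it was above 0.05 without the second 6 h array or either 12 h array, at 0.054 to 0.17.

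Set in the root time course, the step from 6 h to 12 h had the fewest called probe sets of the 5 successive steps. The fit called 123 probe sets at 1 h against 0.5 h (0.732%), 1675 at 3 h against 1 h (9.96%), 32 at 6 h against 3 h (0.19%), 5 at 12 h against 6 h and 267 at 24 h against 12 h (1.59%). Neighbouring steps share arrays, and the difference between steps was not tested. The steps also differ in length. In shoots the same 5 steps had 1486 (8.84%), 5054 (30.1%), 2420 (14.4%), 2101 (12.5%) and 2572 calls (15.3%).

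The 35 gene lists for the clock, water stress, nutrients, growth, metabolism and tissue markers held 947 genes, of which 166 had a named probe set and 139 were tested. Of these, GI was the 1 that passed the test in roots, against 0.0297% of all tested probe sets. Their median change was 0.0040, against -0.0018 for all tested probe sets. For 99 of the 139 the 95% interval lay within 2-fold either way, against 91% of all tested probe sets. An unadjusted p under 0.05 was found for 22 of the 139, against 7.7% of all tested probe sets. These shares are a description, since the lists were chosen with earlier results of these data known. Lists for nitrate, phosphate, raffinose and trehalose, aquaporins, cytosolic ribosomal proteins, ethylene and jasmonate, and gibberellin had 0 tested members with a name here. The values of the list members follow by role.

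**Figure D2:**
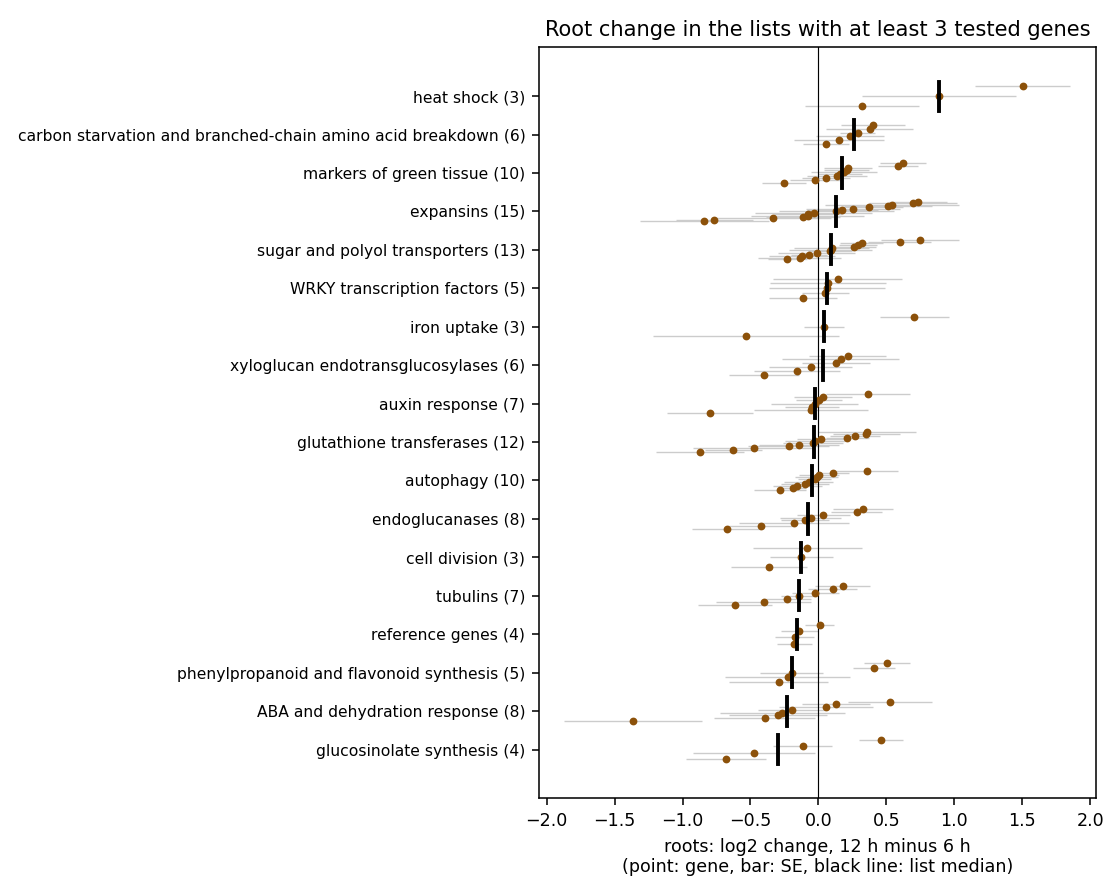
Root change in log2(signal + 8), 12 h minus 6 h (horizontal axis), for each tested member (point, with SE as bar) of the lists with at least 3 tested genes, with the list median as a black line and the number tested in brackets. Of the genes shown none passed the test; list medians ran from -0.29 for glucosinolate synthesis to 0.89 for heat shock.

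Among clock and light genes, 1 member each of the morning, evening and light signalling lists was tested. AT5G52660, from the morning list, gave 76.6 and 97.2 at 12 h and 72 and 92.1 at 6 h, so the times overlapped (change 0.08 ± 0.20). HYH, a bZIP transcription factor related to the light regulator HY5, gave 48.8 and 35.1 at 12 h and 21.7 and 25.4 at 6 h. Both 12 h arrays of HYH lay above both 6 h arrays, which held for 19.2% of all tested probe sets, and its change of 0.65 ± 0.23 did not pass (limma adjusted p = 0.41).

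Of the abscisic acid and dehydration genes, 8 of 31 were tested and 0 passed (1 at an unadjusted p under 0.05), with a median change of -0.23. The dehydrins LTI30 and COR47, hydrophilic proteins that protect cell structures during drying, stood among the bright signals of the roots at both times. LTI30 gave 3686 and 3902 at 12 h and 4845 and 4298 at 6 h, and COR47 gave 3720 and 4385 at 12 h and 3759 and 3634 at 6 h. The 2 times overlapped for COR47 and did not for LTI30, whose change of -0.27 ± 0.46 had an interval of -1.24 to 0.71. AT3G02480, which had been 58.4 and 47.1 at 0.5 h, gave 2687 and 2353 at 12 h and 2802 and 2089 at 6 h, again overlapping. LEA4-5, a LEA protein, gave 722 and 746 at 12 h and 1102 and 849 at 6 h, a change of -0.39 ± 0.37 (adjusted p = 0.88).

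COR15A, a chloroplast protein that protects membranes in cold and drought, had the lowest value of this list. It gave 42.3 and 57.3 at 12 h and 137 and 142 at 6 h, both 12 h arrays below both 6 h arrays, as for 18.8% of all tested probe sets. Its change of -1.36 ± 0.51 did not pass (limma adjusted p = 0.46), and its replicates at 3 h, 262 and 65.6, were far apart. COR15B, its close relative, had an estimated change of -0.30 ± 0.36 and PUB19, a ubiquitin ligase, one of -0.20 ± 0.25. Of the 2 tested proline list genes, BZIP53, a transcription factor that activates proline dehydrogenase, had an estimated change of -0.02 ± 0.12, and AT5G38710 one of -0.46 ± 0.46.

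The 3 tested heat shock genes had a median of 0.89, the highest of the lists with at least 3 tested genes, and 0 passed (1 at an unadjusted p under 0.05). ATHSP22.0, a chaperone of the small heat shock protein class, gave 435 and 468 at 12 h and 104 and 225 at 6 h. Its 2 times did not overlap, and its change of 1.50 ± 0.35 had a limma adjusted p of 0.18. AT1G53540 gave 469 and 841 at 12 h and 142 and 781 at 6 h. AT5G48570 (ROF2, an immunophilin) gave 293 and 588 at 12 h and 177 and 613 at 6 h. Both overlapped between times, with 6 h replicates far apart. The second 6 h array was the higher in each of the 3.

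Genes of carbon starvation and branched-chain amino acid breakdown, which plants use when sugars run low, had 6 tested members, all with a change above 0 and a median of 0.26, and 0 passed (1 at an unadjusted p under 0.05). SAG29, a SWEET sugar transporter raised in senescence, gave 361 and 287 at 12 h and 307 and 196 at 6 h (change 0.38 ± 0.32). IVD, isovaleryl-CoA dehydrogenase of leucine breakdown, gave 461 and 650.2 at 12 h and 361 and 471 at 6 h (change 0.40 ± 0.24). These 2 overlapped between times, as did MCCA and MCCB, the subunits of methylcrotonyl-CoA carboxylase, and ETFQO, which passes electrons from these steps to respiration. D2HGDH, D-2-hydroxyglutarate dehydrogenase, was the exception, with 118 and 143 at 12 h and 111 and 99.7 at 6 h (change 0.29 ± 0.13, limma adjusted p = 0.62).

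**Figure D3:**
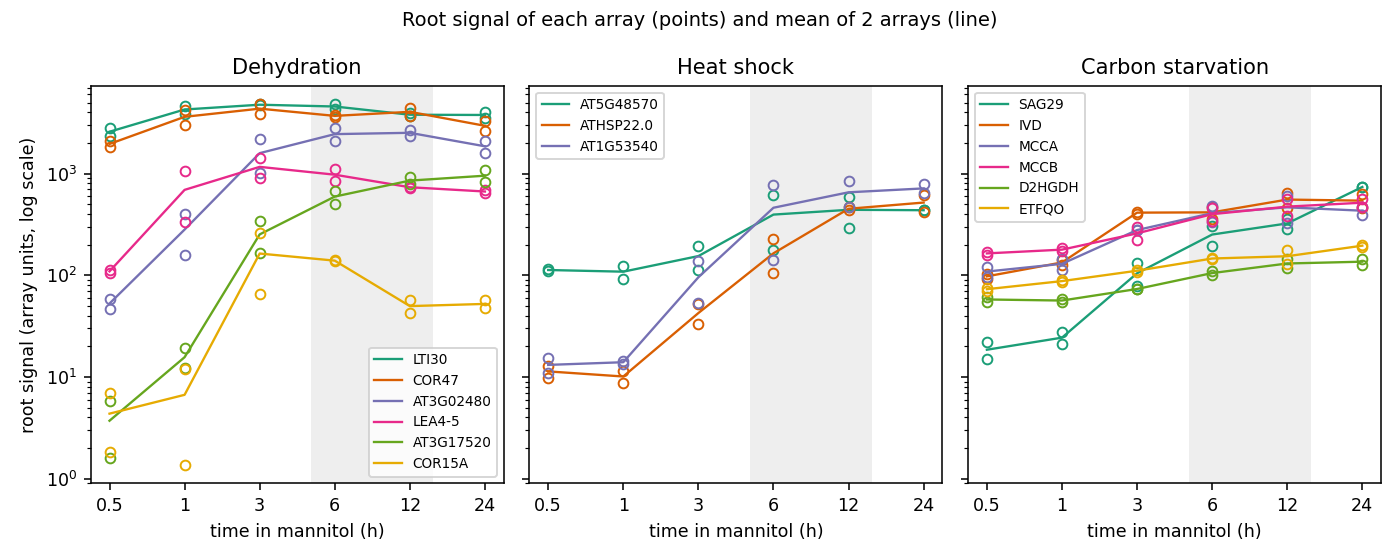
Root signal (array units, log axis) of tested dehydration genes (6 of 8), heat shock genes and carbon starvation genes against time in mannitol (h, times evenly spaced); points are single arrays, lines the mean of 2, and the shaded band holds 6 h and 12 h. In the band LTI30 stood at 3686 and 3902 at 12 h and 4845 and 4298 at 6 h, and the heat shock replicates at 6 h were spread, as 142 and 781 for AT1G53540.

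Among 13 tested sugar transporters 0 passed (2 at an unadjusted p under 0.05), with a median of 0.089 and a range of -0.23 to 0.74. The highest was SWEET13, a sucrose exporter, with 107 and 91.1 at 12 h and 60.4 and 51.3 at 6 h (change 0.74 ± 0.29, limma adjusted p = 0.5). TMT3, a relative of the vacuolar sugar importers TMT1 and TMT2, had an estimated change of 0.60 ± 0.23, while TMT1 had an estimated change of -0.23 ± 0.14 and TMT2 one of 0.26 ± 0.17. The 10 tested autophagy genes, most of them ATG8 proteins that coat the forming autophagosome, had a median of -0.049. For all 10 the 95% interval lay within 2-fold, as for 91% of all tested probe sets, and the largest change was that of ATG8H, 0.36 ± 0.23.

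Wall loosening and growth genes gave 0 calls. The 15 tested expansins, proteins that loosen walls at low pH, 3 of them at an unadjusted p under 0.05, had a median of 0.13 and ran from -0.84 to 0.73. EXPA15 gave 75.3 and 57.9 at 12 h and 35.8 and 37.6 at 6 h, and EXLB1 gave 1294 and 1519 at 12 h and 1015 and 732 at 6 h. Both had 12 h arrays above 6 h arrays (changes 0.73 ± 0.21 and 0.70 ± 0.32, limma adjusted p = 0.33 and 0.64). That held for 8 of the 15 expansins, against 19.2% of all tested probe sets. The reverse held for 3, against 18.8%. EXPB3 lay the other way, with 26.8 and 25.9 at 12 h and 43.9 and 57.7 at 6 h. The root hair expansins EXPA7 and EXPA18 were dim, between 0.843 and 21.4 over the 4 arrays, with estimated changes of -0.84 and -0.33.

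The 6 xyloglucan endotransglucosylases, which cut and rejoin wall xyloglucan, had a median of 0.036, the 8 endoglucanases -0.078 and the 7 tubulins, the subunits of microtubules, -0.14. At an unadjusted p under 0.05 these lists held 0, 1 and 1 genes. The lowest tubulin was TUB5, with 47 and 41 at 12 h and 55.7 and 91.5 at 6 h (change -0.62 ± 0.27, limma adjusted p = 0.61). The division genes AUR1 and AUR2, mitotic kinases, and TOPII, a topoisomerase, had estimated changes of -0.13, -0.36 and -0.08. GSO1, a receptor needed to close the Casparian strip, gave 308 and 325 at 12 h and 331 and 241 at 6 h, which overlapped. PRX52, a cell wall peroxidase, had an estimated change of 0.72 ± 0.42 (adjusted p = 0.73).

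Specialised metabolism and detoxification genes also gave 0 calls, with 2 genes each of the glucosinolate, phenylpropanoid and glutathione transferase lists at an unadjusted p under 0.05. The 4 glucosinolate genes had a median of -0.29, with BCAT4, which starts methionine chain elongation, at 87.9 and 82.9 at 12 h and 108 and 184 at 6 h. The other extreme was AT2G31790, with 54.3 and 51.5 at 12 h and 42.2 and 30.9 at 6 h, and neither passed (limma adjusted p = 0.6 and 0.41). Of 5 phenylpropanoid and flavonoid genes, HCT, an acyltransferase of lignin synthesis, gave 934 and 1152 at 12 h and 921 and 657 at 6 h (change 0.41 ± 0.15), and UGT78D2, a flavonoid glucosyltransferase, gave 272 and 189 at 12 h and 169 and 147 at 6 h (change 0.51 ± 0.17). Both had 12 h arrays above 6 h arrays, as had 19.2% of all tested probe sets, while DFR, UF3GT and AT4G14090 overlapped.

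The 12 glutathione transferases, which conjugate toxic compounds to glutathione, had a median of -0.034. GSTU25 gave 191 and 82.7 at 12 h and 195 and 291 at 6 h, and GSTU22 gave 327 and 281 at 12 h and 529.9 and 420.2 at 6 h. These were the 2 lowest changes of that list, at -0.87 and -0.63 (adjusted p = 0.46 and 0.38). Among nutrient genes, sulfite reductase (SIR) had an estimated change of -0.16 ± 0.17 and the ATP sulfurylase APS3 one of -0.15 ± 0.18. Of the 3 tested iron genes 0 passed (1 at an unadjusted p under 0.05). F6'H1 (AT3G13610), which makes iron-mobilising coumarins, gave 492 and 398 at 12 h and 670.3 and 618 at 6 h (change -0.53). PYE, a regulator of iron deficiency responses, overlapped between times. BHLH101, another such regulator, was below 10 in all 4 arrays, with a change of 0.71 ± 0.25 (limma adjusted p = 0.43).

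Hormone and defence regulators gave 0 calls (1 at an unadjusted p under 0.05). Of 7 auxin response genes, GH3.3, an enzyme that conjugates auxin to amino acids, gave 350.3 and 368 at 12 h and 556 and 717 at 6 h (change -0.80 ± 0.32, limma adjusted p = 0.51). The other 6 overlapped between times and ran from -0.05 to 0.36. ARR15, a cytokinin response regulator, had an estimated change of 0.15 ± 0.25. The 5 WRKY transcription factors, regulators of defence and senescence, ran from -0.12 to 0.14. The 4 reference genes ran from -0.18 to 0.01, with a median of -0.16.

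The markers of green tissue were all dim in roots compared with shoots, and 0 of 10 passed (2 at an unadjusted p under 0.05), with a median change of 0.17. RCA, Rubisco activase, gave 156 and 171 in 12 h roots and 110.0 and 103 in 6 h roots (change 0.58 ± 0.15, limma adjusted p = 0.22). SBPASE, a Calvin cycle enzyme, gave 28 and 36.6 in 12 h roots and 17.5 and 18.5 in 6 h roots (change 0.62 ± 0.17, adjusted p = 0.28). Both genes had 12 h arrays above 6 h arrays, as had PSAN, PSBY and LHCB4.1, against 19.2% of all tested probe sets. PSBW had them below, against 18.8% of all tested. As set out above, their summed root signal was higher in both 12 h arrays than in both 6 h arrays, and its part in other results was not tested.

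Some rises that did not pass were larger than those that did. The largest of all tested was 1.90, in a probe set that names no single gene. The genes named next were picked, after their values were seen, from the 10 highest and the 10 lowest such changes among probe sets that name 1 gene and whose arrays did not overlap between the times. They are examples and not in order of size. AT2G16005 gave 182 and 63.1 at 12 h and 25.8 and 33.6 at 6 h (change 1.63 ± 0.41, adjusted p = 0.22), the highest of those 10 rises. ICL, isocitrate lyase, the glyoxylate cycle enzyme known from fat mobilisation in seedlings, gave 523 and 981 at 12 h and 273 and 259 at 6 h. Both 12 h arrays lay above both 6 h arrays but they were far apart themselves, and the change of 1.40 ± 0.28 had a limma adjusted p of 0.12. Over the root course ICL gave 38.1 and 16.9 at 0.5 h, 37.4 and 59.4 at 1 h and 347 and 389 at 24 h, and shoot signals did not exceed 3.15. AT5G28520 gave 617 and 419 at 12 h and 242 and 179 at 6 h (change 1.26 ± 0.29, adjusted p = 0.18). CHX16, a cation/H+ exchanger, gave 25 and 12.8 at 12 h and 57.7 and 46.5 at 6 h (change -1.19 ± 0.47, adjusted p = 0.51).

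Close replicates with smaller changes stood just outside the threshold, again chosen after their values were seen. Y14, an RNA-binding protein of the exon junction complex, gave 226 and 223 at 12 h and 322 and 336 at 6 h (change -0.53 ± 0.10, limma adjusted p = 0.12). NRPB6B, a subunit of RNA polymerases, gave 164 and 134 at 12 h and 253 and 221 at 6 h (change -0.64 ± 0.13, adjusted p = 0.12). AT4G02840 gave 163 and 149 at 12 h and 242 and 266 at 6 h (change -0.68 ± 0.12, adjusted p = 0.088). In these 3 both 12 h arrays lay below both 6 h arrays, as for 18.8% of all tested probe sets. CURT1A (AT4G01150), which curves thylakoid membranes, lay the other way, with 185 and 216 at 12 h and 128 and 140.2 at 6 h (adjusted p = 0.12).

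Over the same interval many more shoot transcripts moved than root transcripts. In roots 5 probe sets passed (0.0297%), and in shoots 2101 passed (12.5%), 1021 higher (6.07%) and 1080 lower (6.42%) at 12 h. At least 2-fold changes numbered 54 in roots (0.321%) and 856 in shoots (5.09%). The change itself differed between roots and shoots for 692 probe sets (4.12%), with the root change above the shoot change for 403 (2.4%) and below it for 289 (1.72%). Of the 692, 629 were called in shoots and 2 in roots. Of the 403, 372 passed the test in shoots as lower at 12 h, and of the 289, 257 passed as higher. The filter on dim probe sets used arrays of both tissues, so a probe set could pass it on shoot signal alone. With that filter on root arrays alone the count was 535, with the root change above the shoot change for 292 and below for 243. Without 1 array the 692 became 447 (first 6 h root array), 378 (second 6 h root array), 328 (second 12 h root array), 281 (first 6 h shoot array) or 375 (first 12 h shoot array). The shoot count became 864 without the first 6 h shoot array, and 1323 or 1261 without the first or second 12 h shoot array.

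Probe sets that moved in shoots had small root changes. The 1021 that rose in shoots had a median change of 0.071 in roots and 0.78 in shoots, and 61.9% of them lay above 0 in roots, against 49.6% of all tested. The 1080 that fell in shoots had a median of -0.050 in roots and -0.85 in shoots, and 58.2% of them lay below 0 in roots, against 50.4% of all tested. Across all tested probe sets the root and shoot changes correlated with Pearson's r of 0.131 and Spearman's rho of 0.091, given as a description, since genes are not independent replicates. GI and the probe set 245306_at were the 2 called in both tissues, each in 1 direction.

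**Figure D4:**
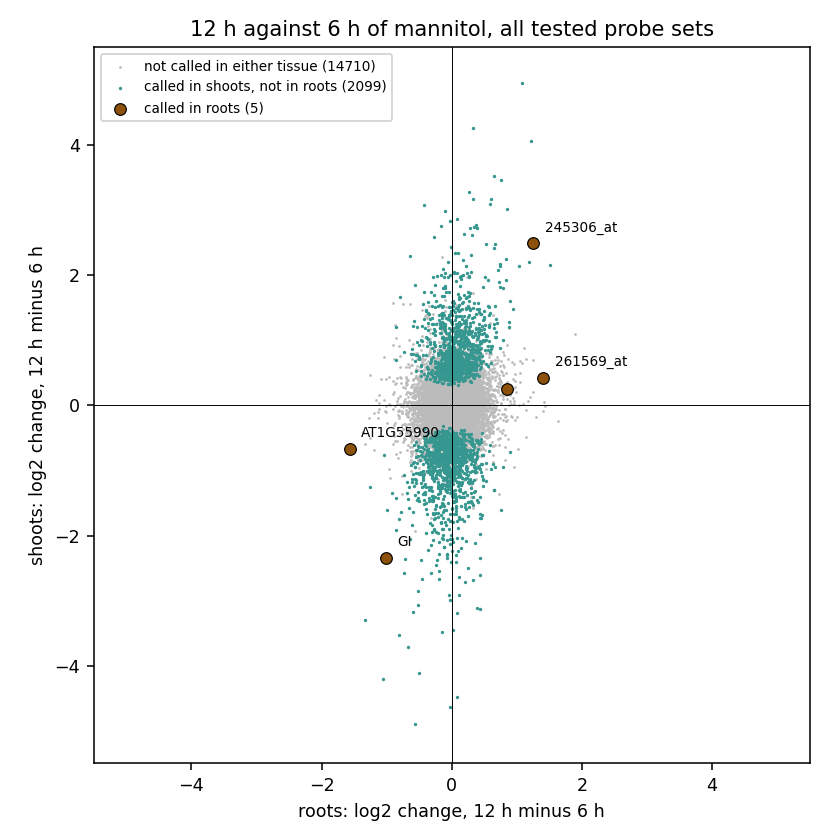
Change in log2(signal + 8), 12 h minus 6 h, in roots (horizontal) and shoots (vertical) for the 16814 tested probe sets, on equal axes; brown points passed the test in roots (5), green points in shoots but not roots (2099), grey points in neither. The cloud is taller than it is wide, with the 10th and 90th percentiles at -0.29 and 0.29 in roots and -0.49 and 0.48 in shoots.

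The named genes whose change differed most, with the root change above the shoot change, fell in shoots and were dimmer in roots than in 6 h shoots. PORB, protochlorophyllide oxidoreductase of chlorophyll synthesis, gave 38.3 and 38.4 in 12 h roots and 35.7 and 33.6 in 6 h roots, against 190.2 and 208 in 12 h shoots and 1598 and 1493 in 6 h shoots. Its difference was 3.03 ± 0.34 (limma adjusted p = 6.8e-05). AT5G62360, AT1G66100 and AT1G70820 had differences of 3.61, 3.47 and 3.27, and root signals no higher than 15.8 over the 4 arrays. AT1G66100 and AT1G70820 did not pass the filter on root arrays alone, so their differences mainly restate the shoot fall. AT5G62360 passed that filter, but its root change was -0.50 ± 0.41 and its shoot change -4.11 ± 0.41, so its difference also mainly restates the shoot fall. AT3G16530 gave 101 and 79.7 in 12 h roots and 69.7 and 71.3 in 6 h roots, against 309.6 and 348 in 12 h shoots and 2129 and 2189 in 6 h shoots (difference 3.01 ± 0.53, adjusted p = 0.0032).

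Genes on the other side rose in shoots, and some of them were already brighter in roots than in shoots at 6 h. AT5G07330 gave 412 and 285 in 12 h roots and 359 and 338 in 6 h roots, against 233 and 124 in 12 h shoots and 17 and 17.1 in 6 h shoots (difference -2.86 ± 0.45, limma adjusted p = 0.0013). At 0.5 h its root signals had been 9.25 and 14.1 and at 3 h 187 and 133. HSA32, a heat-stress protein that keeps acquired heat tolerance, gave 230.4 and 245 in 12 h roots and 125 and 189 in 6 h roots, against 507 and 206 in 12 h shoots and 27.5 and 30.3 in 6 h shoots (difference -2.56 ± 0.53, adjusted p = 0.01). AT4G31830 gave 113 and 54 in 12 h roots and 83.5 and 65.5 in 6 h roots, overlapping, and changed by 2.86 ± 0.37 in shoots (difference -2.78 ± 0.53, adjusted p = 0.0057). AT2G42560 and AT2G46940 were dim in roots, at most 32.1 over the 4 arrays, with differences of -2.84 and -2.86.

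Among the 139 tested list genes, GI included, 13 passed the test of the difference, against 4.12% of all tested probe sets. Of the 10 markers of green tissue, 6 passed with the root change above the shoot change, against 2.4% of all tested probe sets. In shoots 6 of the 10 passed as lower at 12 h, against 6.42% of all tested. The lists were chosen with earlier results of these data known, so these shares are given as a description. The largest of the 6 differences was that of LHCB4.2, a light-harvesting antenna protein. It gave 40.3 and 56.1 in 12 h roots and 41.8 and 56.2 in 6 h roots, against 1134 and 973 in 12 h shoots and 4732 and 4022 in 6 h shoots. The other markers that passed the test of the difference were PSBY, PSAN, RCA, SBPASE and LHCB4.1. In the dehydration list AT3G17520 gave 917 and 791 in 12 h roots and 681 and 508 in 6 h roots, against 3225 and 2613 in 12 h shoots and 432 and 609 in 6 h shoots (difference -1.95 ± 0.44, limma adjusted p = 0.017). SWEET1, a glucose transporter, gave 73.6 and 69.3 in 12 h roots and 73.5 and 60.7 in 6 h roots, against 1401 and 1028 in 12 h shoots and 258 and 318 in 6 h shoots (difference -1.95 ± 0.23, adjusted p = 0.00012).

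The flavonoid genes DFR and UF3GT, which act in anthocyanin synthesis, did not pass in roots and rose in shoots. DFR gave 21.4 and 41.7 in 12 h roots and 38.8 and 38.7 in 6 h roots, and 96.2 and 119 in 12 h shoots and 13.3 and 32.2 in 6 h shoots (difference -2.27 ± 0.51, limma adjusted p = 0.018). UF3GT had a difference of -1.58 ± 0.33 (adjusted p = 0.011). EXPA15 had a difference of 1.34 ± 0.30 (adjusted p = 0.018), with root and shoot changes of opposite sign, 0.73 and -0.61, neither of which passed by itself. GSTU18 gave 48.1 and 46.8 in 12 h roots and 50.1 and 43.8 in 6 h roots and fell in shoots (change -0.93 ± 0.17, difference 0.95 ± 0.25, adjusted p = 0.039). The differences of LHCB4.1 and SBPASE were lost under 10 of 18 alternative settings each, and that of GSTU18 under 9. Without the first 6 h shoot array the adjusted p of the difference was 0.065 for UF3GT, 0.12 for DFR, 0.11 for EXPA15, 0.099 for AT3G17520 and 0.105 for AT2G42560. It was 0.20 for LHCB4.1, 0.17 for SBPASE and 0.21 for GSTU18 without that array. HSA32 was at 0.055 without the second 6 h root array and at 0.052 without the first 12 h shoot array. Among the 23 named genes whose change differed between the tissues, these 9 lost the call without at least 1 of the 8 arrays of both tissues at these times. Leaving out the second 6 h shoot array cost none of the 23 calls.

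**Figure D5:**
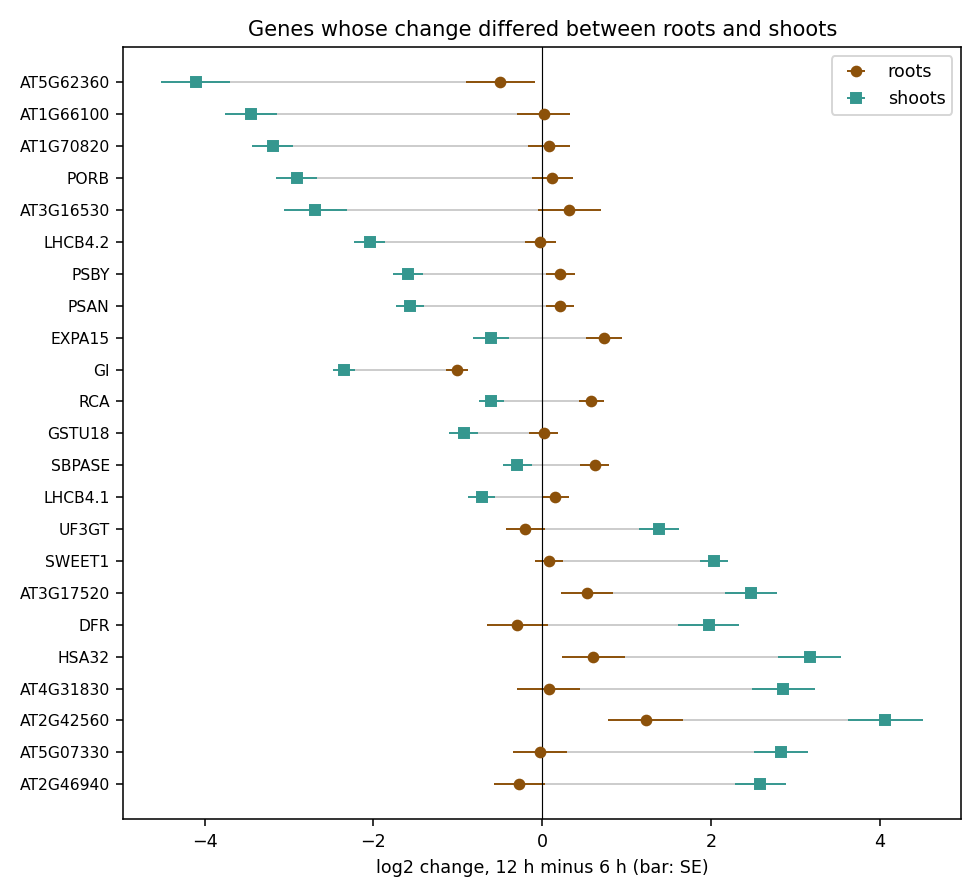
Change in log2(signal + 8), 12 h minus 6 h, in roots (brown circles) and shoots (green squares), with SE as bars, for the 23 named genes whose change differed between roots and shoots, ordered by the difference. Root changes lay between -1.01 (GI) and 1.23 (AT2G42560), and shoot changes between -4.11 (AT5G62360) and 4.07 (AT2G42560).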

How the data were processed

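The authors deposited linear signal intensity values per probe set, made with MAS5 per the submitters' processing notes; the sources used here do not give its version or scaling target. Of 22810 probe sets, 64 controls were left out. From the deposited values log2(signal + 8) was taken, which understates changes of dim genes. The 16814 probe sets that exceeded the 40th percentile of an array in 2 or more of the 24 were tested. A limma model (version 3.58.1, R 4.3.3) held 12 group means, with a variance trend on intensity and 12 residual and 5.29 prior degrees of freedom, and p-values were adjusted by Benjamini-Hochberg over all tested, at 0.05. The fit was tested on simulated root data with 50 changed probe sets of each size. It recovered 2 of 50 at a log2 change of 0.5, 37 at 1, 47 at 1.5 and 47 at 2. It made 2 calls among 16614 unchanged probe sets. The tested contrasts were roots 12 h minus 6 h, shoots 12 h minus 6 h, and their difference. The number of arrays limits precision.

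The annotation named 1 gene for 13513 probe sets, of which 13436 matched the TAIR10.1 gene table, several genes for 503 and none for 8730. Of the tested probe sets 9166 named 1 gene. Named genes were, among these, the called ones without overlap between replicates, at most 15 each way, the 5 largest differences each way, and members of 35 lists. The samples, lists and tests were chosen with earlier results of these data known. Pseudocount, scaling, filters, fit, replicate number as a block and each left-out array were varied.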

Additional observations from a re-analysis of the deposited data

Results flagged for a closer look

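For 23 named genes the change from 6 h to 12 h differed between roots and shoots by limma's test of the difference, and each is given here as the root change minus the shoot change in log2. The root change lay above the shoot change for AT5G62360 by 3.61, for AT1G66100 by 3.47, for AT1G70820 by 3.27, for PORB by 3.03 and for AT3G16530 by 3.01. Of these, AT1G66100 and AT1G70820 did not pass the filter on root arrays alone. Among markers of green tissue the difference was 2.02 for LHCB4.2, 1.80 for PSBY, 1.78 for PSAN, 1.19 for RCA, 0.92 for SBPASE and 0.87 for LHCB4.1. It was 1.34 for EXPA15, 1.33 for GI and 0.95 for GSTU18.

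The root change lay below the shoot change for AT2G46940, with a difference of -2.86, for AT5G07330 (-2.86), for AT2G42560 (-2.84), for AT4G31830 (-2.78) and for HSA32 (-2.56). The list genes on this side were DFR, at -2.27, AT3G17520, at -1.95, SWEET1, at -1.95, and UF3GT, at -1.58. The genes outside the lists were named for the size of this difference, so their sizes are high by choice.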

How the results depend on the processing

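Alternatives were run for the 5 called root changes and for the 23 named differences between roots and shoots, and none of these turned its sign. The changes of the other named genes were not run under them. The root counts of 3 higher and 2 lower became 5 and 4 with a pseudocount of 1, 9 and 12 with 32, 6 and 7 without the filter, and 3 and 5 without the variance trend. Both became 0 with root arrays alone and with the 4 arrays alone. Leaving out 1 root array gave 0 to 2 higher and 0 to 3 lower. The count of differences between roots and shoots ran from 527 to 832 over the settings with all arrays and from 281 to 750 with 1 array left out. The shoot count, whose alternatives were chosen after seeing the data, ran from 864 to 1821 with 1 array left out. Of the single-gene results under these settings, 411 kept their side of the threshold and 81 lost it.

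GI was lost in 4 of 16 settings, AT1G55990 in 7, 261569_at and 245306_at in 5 each and the remaining probe set in 7. With the replicate number as a block, 3 probe sets were higher and 2 lower in roots, the 5 called without it, and 698 differed between tissues. Deviations of arrays with the same number correlated at -0.17 to 0.35 over 66 pairs of groups (0.15 between 12 h and 6 h roots), above 0.1 in 13, so the number is not shown to pair samples. Signals near the floor of an array limit what can be said of dim genes.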

Other observations

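Neighbouring genes of one stretch of the gene table, AT1G52050, AT1G52060 and AT1G52070, were among the 10 lowest root changes that did not pass, counted over probe sets that name 1 gene and whose arrays did not overlap between the times, and are given because of their values. AT1G52050 gave 30.3 and 16.7 in 12 h roots and 47.5 and 89.7 in 6 h roots, and AT1G52060 gave 15 and 6.88 in 12 h roots and 20.8 and 54 in 6 h roots. AT1G52070 gave 57.1 and 49.6 in 12 h roots and 86.5 and 178 in 6 h roots. By this choice both 12 h arrays lay below both 6 h arrays in each, as for 18.8% of all tested probe sets. The second 6 h array was well above the first. The limma adjusted p-values were 0.61, 0.8 and 0.72, and probes of related neighbouring genes may share signal.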
